A study of Rattus norvegicus with 18 samples.

Results

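The genes described here are the 8 that encode the interferon-inducible proteasome subunits and the machinery that carries peptides onto MHC class I molecules: Psmb8, Psmb9 and Psmb10, Psme1 and Psme2, Tap1 and Tap2, and Tapbp. They were chosen by gene symbol, and all 8 had a row among the 32883 gene rows of the deposited table. RNA was measured in cortical collecting ducts, the tubule segments that set the final salt, acid and water content of urine, microdissected from male Sprague-Dawley rats 3 h after a single intraperitoneal injection. The injected agent was lipopolysaccharide (LPS), a bacterial cell wall component, in 3 numbered samples and normal saline, labelled Vehicle, in the other 3, and each sample was sequenced as 3 libraries, 18 in all. No strain, allele or other treatment differs between the groups in the labels, the animals' age is not given in the sources used here, and nothing in the labels says whether a numbered sample holds the ducts of a single rat.

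The proteasome is a barrel-shaped protease whose cutting is done by the catalytic beta subunits Psmb5, Psmb6 and Psmb7. Under interferon these are replaced, in newly built particles, by Psmb8, Psmb9 and Psmb10, which gives the immunoproteasome and more peptides with the ends that class I molecules bind. Psme1 and Psme2 form the ring-shaped activator PA28 that opens the barrel, Tap1 and Tap2 pair into the transporter that pumps peptides into the endoplasmic reticulum, and Tapbp, known as tapasin, holds an empty class I molecule beside the transporter. In epithelia these genes are known as targets of interferon signalling, through Irf1 and the class I transactivator Nlrc5, and of NF-kappaB.

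The promoters of these genes are shown first, because most of them share a short element. Promoter windows of 300 bases, from 250 before to 50 after the annotated gene start, were taken from RefSeq on the rat assembly GRCr8, and all 8 genes had one. The core of the interferon-stimulated response element (ISRE), spelled AAANNGAAA and searched on both strands, was present in 6 of the 8 windows, against 11.8% of the 33469 windows of the RefSeq table. The stretches below give the core in capitals with 20 bases on each side, read in the direction that spells the motif, and they are printed because they let the elements be compared letter by letter.

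Tap1, chr20:4668636-4668684, plus strand: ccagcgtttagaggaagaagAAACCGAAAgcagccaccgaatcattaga
Tap2, chr20:4652308-4652356, minus strand: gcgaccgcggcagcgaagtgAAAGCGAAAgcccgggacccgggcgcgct
Psmb8, chr20:4657007-4657055, plus strand: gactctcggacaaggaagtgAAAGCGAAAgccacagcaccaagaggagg
Psmb10, chr19:50743336-50743384, minus strand: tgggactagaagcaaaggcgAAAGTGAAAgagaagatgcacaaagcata
Psmb10, chr19:50743280-50743328, minus strand: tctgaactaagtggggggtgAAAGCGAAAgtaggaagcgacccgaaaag
Psme2, chr15:33052775-33052823, minus strand: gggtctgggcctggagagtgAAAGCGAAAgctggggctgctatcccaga
Tapbp, chr20:4967868-4967916, minus strand: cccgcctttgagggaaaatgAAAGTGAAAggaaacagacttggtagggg

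The letters AAAGCGAAA stood in 4 of these genes, Psmb8, Psmb10, Psme2 and Tap2, against 0.167% of all windows on either strand. That spelling was picked out after the matches were seen, so its count is a description. In Psmb10 the core occurred at -72 to -64 and again at -16 to -8, counted from the gene start, and in Psmb8 it lay across the start, from -4 to 5. Tapbp held a pair of overlapping cores, at -25 to -17 and at -19 to -11, of which the second is capitalised above. The windows of Psmb9 and Psme1 had no match to this spelling, which says only that these letters are not in these windows. The Psme1 window ends in tttcgctt, which is TTTCGCTTT, the reverse complement of AAAGCGAAA, without its last letter. The next base lies outside the window.

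Tap1 and Psmb9 lie head to head on chromosome 20, and their windows overlap by 44 bases. Both windows are printed whole because they show the start regions of the gene with the largest LPS difference of the 8 and of its neighbour. Capitals mark the ISRE core and the NF-kappaB motif. The window of Tap1 is chr20:4668494-4668793 on the minus strand, and that of Psmb9 is chr20:4668750-4669049 on the plus strand.

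Tap1: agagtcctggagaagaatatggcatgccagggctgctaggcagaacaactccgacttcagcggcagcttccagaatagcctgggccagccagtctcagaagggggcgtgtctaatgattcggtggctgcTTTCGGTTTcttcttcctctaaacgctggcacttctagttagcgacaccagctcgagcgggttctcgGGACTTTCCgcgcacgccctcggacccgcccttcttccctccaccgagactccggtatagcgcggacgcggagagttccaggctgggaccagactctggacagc
Psmb9: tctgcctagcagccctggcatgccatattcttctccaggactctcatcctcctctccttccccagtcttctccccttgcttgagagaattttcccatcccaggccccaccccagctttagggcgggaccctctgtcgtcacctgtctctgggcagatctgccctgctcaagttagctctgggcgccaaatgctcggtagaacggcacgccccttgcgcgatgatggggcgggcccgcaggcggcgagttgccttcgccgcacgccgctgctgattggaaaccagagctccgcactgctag

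In the Tap1 window the ISRE core stood at -121 to -113 and an NF-kappaB motif at -54 to -46. The NF-kappaB motif, spelled GGNNTTTCC, was found in 2 of the 8 windows, those of Tap1 and Tapbp, against 6.05% of all windows. The gamma-activated site (GAS), spelled TTCNNNGAA, was found in 1 window, that of Psmb8, against 8.87% of all windows. A GC box, spelled GGGCGG, was present in 5 of the 8 windows against 33.1%, a CCAAT box, spelled CCAAT, in 2 against 37.5%, and a TATA box, spelled TATAAA, in 0 against 14.2%. None of these matches overlapped a match of another motif.

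**Figure D1:**
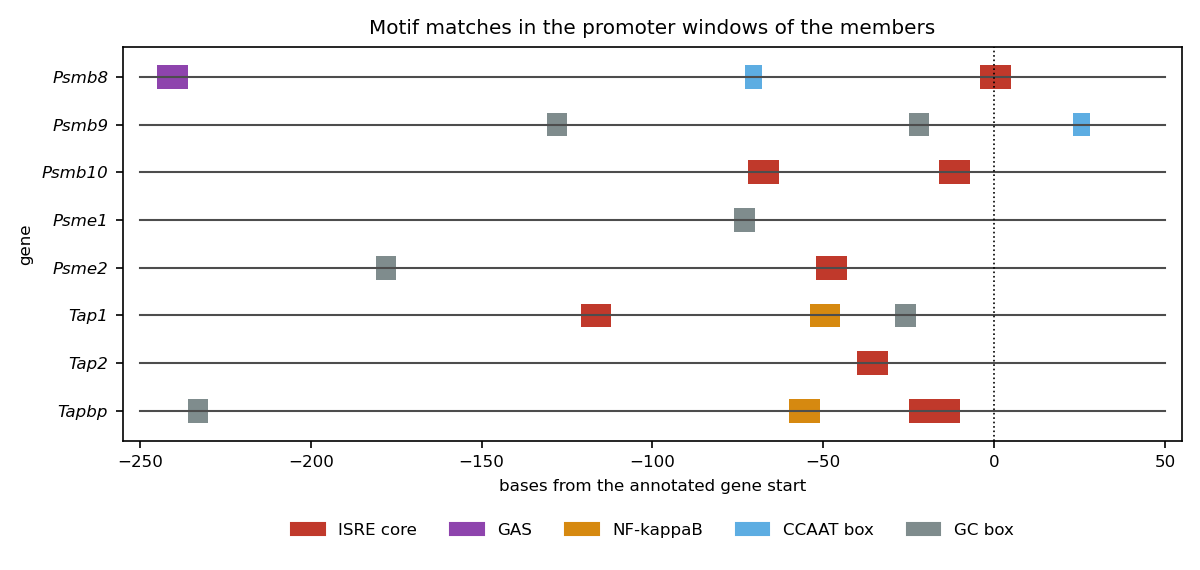
Motif matches in the promoter windows of the 8 genes, with bases from the annotated gene start on the x axis and 1 gene per row; coloured boxes are matches on either strand. ISRE cores are drawn in 6 of the 8 rows, within -121 to 5, and the NF-kappaB motif in the rows of Tap1 and Tapbp.

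Tap2, Psmb8, Tap1 and Psmb9 stand next to one another on chromosome 20, with 0 protein-coding genes between neighbours in the RefSeq table, and 20 separate Psmb9 from Tapbp. Psme1 and Psme2 lie on chromosome 15 with 1 gene, Emc9, between them, and Psmb10 lies on chromosome 19.

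Values are TPM, a transcript's share of its library corrected for transcript length, so levels can be set side by side between genes. Because TPM does not keep the number of reads, the depth behind a value is unknown, and counting intervals cannot be given. A library listed from 11399 to 11841 genes at 1 TPM or more in LPS and from 11932 to 12704 in Vehicle. Over the 12393 genes tested, 889 were called higher in LPS, which is 7.17%, and 2757 were called lower, which is 22.2%, with a median log2 difference of -0.38. This split depended on scaling, since 821 genes were higher and 460 lower after median-ratio scaling, where that median was -0.02, and 809 and 579 after quantile normalization, where it was -0.12. The ducts carried their defining transcripts: principal cell markers, among them the water channel Aqp2 at 4012 ± 1098 TPM in LPS and 5961 ± 551 TPM in Vehicle (SD, n = 3 each), summed to 10099 to 14058 TPM in LPS and 17986 to 19458 TPM in Vehicle, with 0 of 15 higher and 11 lower, and intercalated cell markers to 9655 to 12413 TPM in LPS and 13336 to 13564 TPM in Vehicle, with 0 of 14 higher and 4 lower. Vehicle 1 stood apart in the markers of the neighbouring distal convoluted and connecting tubule, which summed to 346, 64.8 and 135 TPM in LPS 1, 2 and 3, against 5369, 156 and 268 TPM in Vehicle 1, 2 and 3. Nearly all of the Vehicle 1 sum was Calb1, a calcium-binding protein of those segments, at 4943 TPM. Of 7 tested markers of these segments 0 were higher and 4 lower in LPS (Calb1, Trpm6, Wnk4 and Tmem52b). LPS 2 stood apart in thick ascending limb markers, which summed to 154, 338 and 187 TPM in LPS 1, 2 and 3, against 178, 156 and 186 TPM in Vehicle 1, 2 and 3, with 1 of 7 higher (Ptger3), and Umod, a protein of that limb, at 127 TPM in LPS 2. Proximal tubule markers summed to 3.19 to 73.0 TPM in LPS and 3.94 to 82.2 TPM in Vehicle, with 0 of 4 tested called by limma, and 0 at an unadjusted p under 0.05. Without the samples numbered 2 all members but Psme1, 7 in number, were called higher, as were 419 of all 12393 tested genes. Without the samples numbered 1 all 8 members were called higher, with a median log2 difference of 3.52, as were 1004 of all tested genes. Leaving out the samples numbered 3, 0 of the 8 members and 0 of all tested genes were called. The part of these neighbouring tubules in the members' values was not tested.

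All 8 genes were called higher in LPS at an adjusted p under 0.05 (limma, Benjamini-Hochberg over all tested genes), against the background of 7.17%. In all 8 every LPS sample lay above every Vehicle sample, which held for 1224 tested genes, or 9.88%. The median log2 difference of the 8 was 3.06. The sizes ranged from a log2 difference of 0.44 for Psme1 to 5.83 for Tap1. In whole ducts, more cells of a type and more RNA per cell cannot be told apart.

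**Figure D2:**
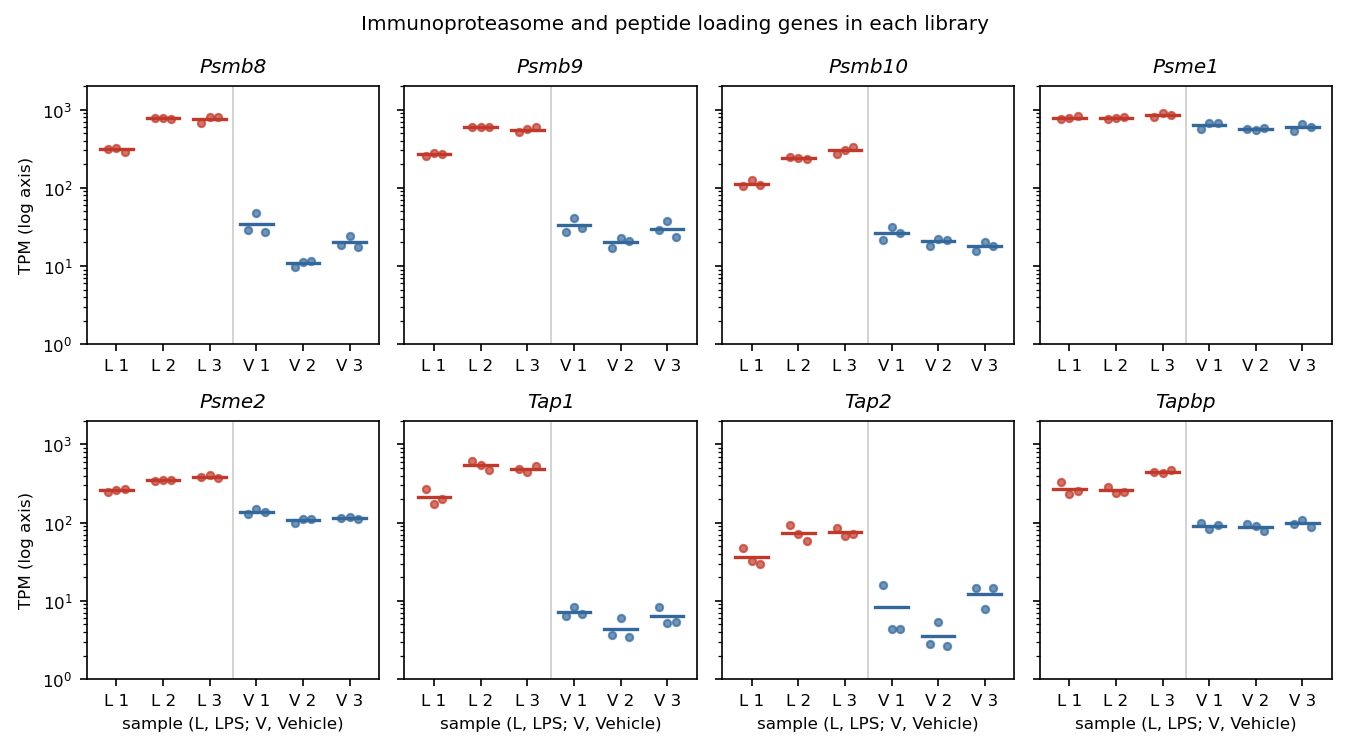
TPM of the 8 genes on a log axis, with points for single libraries and a bar for the mean of the 3 libraries of each sample; L 1 to L 3 are the LPS samples and V 1 to V 3 the Vehicle samples. Psmb8, Psmb9, Psmb10, Tap1 and Tap2 are set far apart by group, with LPS 1 lower than LPS 2 and LPS 3, while Psme1 differs little.

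All 3 catalytic subunits of the immunoproteasome rose, Psmb8 most and Psmb10 least. Psmb8 (ENSRNOG00000000456), which replaces Psmb5 and carries the chymotrypsin-like activity, stood at 310, 774 and 765 TPM in LPS 1, 2 and 3, against 34.6, 10.8 and 20.2 TPM in Vehicle 1, 2 and 3. Single libraries ran from 290.84 to 811.26 TPM in LPS and from 9.77 to 47.82 TPM in Vehicle, so no library of one group reached the other. LPS 1 was the lowest of the LPS samples and Vehicle 1 the highest of the Vehicle samples. Psmb8 averaged 616 ± 265 TPM in LPS and 21.9 ± 12.0 TPM in Vehicle (SD, n = 3 each), a 28.2-fold ratio of means. The log2 difference was 4.80 (SE 0.479, limma adjusted p = 0.00189), and within same-numbered pairs it was 3.17, 6.04 and 5.19.

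Psmb9 (ENSRNOG00000000459), which takes the place of Psmb6, stood at 269, 601 and 554 TPM in LPS 1, 2 and 3, against 33.0, 20.2 and 30.0 TPM in Vehicle 1, 2 and 3. The order within LPS was as for Psmb8, with LPS 1 lowest, and the groups did not overlap. The means were 475 ± 180 TPM in LPS and 27.7 ± 6.70 TPM in Vehicle (SD, n = 3 each), and the log2 difference was 4.01 (SE 0.322, limma adjusted p = 0.000854). Psmb10 (ENSRNOG00000019494), which takes the place of the trypsin-like Psmb7, stood at 113, 240 and 302 TPM in LPS 1, 2 and 3, against 26.3, 20.7 and 18.1 TPM in Vehicle 1, 2 and 3. Here too LPS 1 was lowest and the groups stood apart. Its means were 218 ± 96.5 TPM in LPS and 21.7 ± 4.21 TPM in Vehicle (SD, n = 3 each), with a log2 difference of 3.18 (SE 0.345, limma adjusted p = 0.00256). The 3 genes stood close together in Vehicle, with means from 21.7 to 27.7 TPM, and apart in LPS, where in each of the 3 samples Psmb8 was highest, Psmb9 next and Psmb10 lowest.

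The constitutive counterparts of these subunits were not called. Psmb5 averaged 411 ± 62.9 TPM in LPS and 413 ± 26.8 TPM in Vehicle (SD, n = 3 each; log2 difference -0.01, SE 0.150, limma adjusted p = 0.950). Psmb6 averaged 458 ± 23.6 TPM in LPS and 451 ± 22.2 TPM in Vehicle (log2 difference 0.03, SE 0.124, limma adjusted p = 0.875). Psmb7 averaged 160 ± 8.42 TPM in LPS and 169 ± 5.57 TPM in Vehicle (log2 difference -0.07, SE 0.141, limma adjusted p = 0.700). These 3 sat above the median of all tested genes, and their sign moved with the scaling: after median-ratio scaling the log2 differences were 0.39 for Psmb5, 0.43 for Psmb6 and 0.33 for Psmb7, and after quantile normalization -0.08, -0.05 and -0.02, with no call in either.

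The balance between both kinds of catalytic subunit therefore differed by group. The ratio of Psmb8 to Psmb5 TPM was 0.646, 2.17 and 1.93 in LPS 1, 2 and 3, against 0.0847, 0.0245 and 0.0518 in Vehicle 1, 2 and 3. The ratio of Psmb9 to Psmb6 TPM was 0.555, 1.36 and 1.24 in LPS 1, 2 and 3, against 0.0700, 0.0446 and 0.0702 in Vehicle 1, 2 and 3. The ratio of Psmb10 to Psmb7 TPM was 0.663, 1.52 and 1.96 in LPS 1, 2 and 3, against 0.151, 0.126 and 0.109 in Vehicle 1, 2 and 3. In LPS 2 and LPS 3 each inducible transcript exceeded its counterpart, in LPS 1 none of the 3 did, and in Vehicle each was a small part of it.

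Taken as a share of the TPM of all 6 catalytic subunits, the inducible ones made up 37.9%, 62.8% and 62.0% in LPS 1, 2 and 3, against 8.18%, 4.66% and 6.49% in Vehicle 1, 2 and 3. The mean share was 54.2% ± 14.2 in LPS and 6.44% ± 1.76 in Vehicle (SD, n = 3 each), a difference of 47.8 percentage points. The 6 transcripts together summed to 2339 ± 444 TPM in LPS and 1104 ± 49.4 TPM in Vehicle, while the constitutive ones alone summed to 1029 ± 93.5 TPM in LPS and 1033 ± 43.1 TPM in Vehicle (SD, n = 3 each). The larger sum in LPS thus lay in the inducible transcripts. Of 6 ratios compared between the groups, the log2 difference was 4.81 for Psmb8 to Psmb5, 3.99 for Psmb9 to Psmb6 and 3.25 for Psmb10 to Psmb7. For each of the 6 the two-sided exact permutation p was 0.1, also after Benjamini-Hochberg adjustment over the 6, which is the smallest p that 3 samples against 3 can give.

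**Figure D3:**
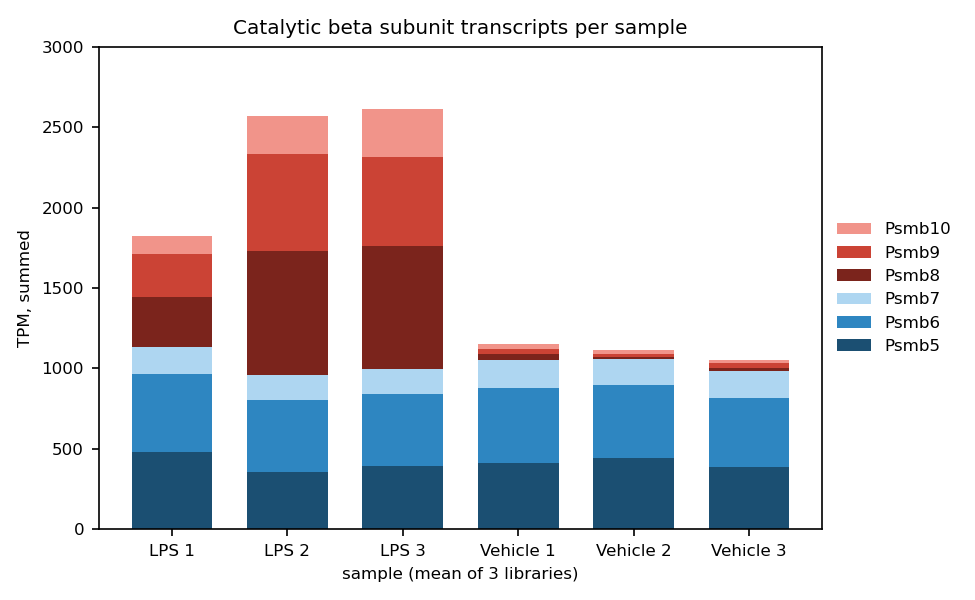
Summed TPM of the 6 catalytic beta subunits in each sample (mean of its 3 libraries), stacked with the constitutive Psmb5, Psmb6 and Psmb7 in blue and the inducible Psmb8, Psmb9 and Psmb10 in red. The blue part is of like height in the 6 samples, and the red part makes up 37.9% to 62.8% of the bar in LPS and 4.66% to 8.18% in Vehicle.

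The PA28 genes were already abundant in Vehicle and differed less. Psme1 (ENSRNOG00000019041), the alpha subunit, stood at 787, 781 and 861 TPM in LPS 1, 2 and 3, against 635, 561 and 595 TPM in Vehicle 1, 2 and 3. The groups did not overlap, and LPS 1 did not stand below the other LPS samples here. The means were 809 ± 44.5 TPM in LPS and 597 ± 36.7 TPM in Vehicle (SD, n = 3 each), 1.36-fold, with a log2 difference of 0.44 (SE 0.122, limma adjusted p = 0.0381). This call was the least firm of the 8: it was lost after quantile normalization (log2 difference 0.34, adjusted p = 0.0934), without a variance trend (adjusted p = 0.105) and without the samples numbered 2 (adjusted p = 0.131).

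Psme2 (ENSRNOG00000019246), the beta subunit, stood at 259, 350 and 388 TPM in LPS 1, 2 and 3, against 137, 107 and 115 TPM in Vehicle 1, 2 and 3. LPS 1 was again lowest within LPS and Vehicle 1 highest within Vehicle. Its means were 332 ± 66.5 TPM in LPS and 120 ± 15.6 TPM in Vehicle (SD, n = 3 each), with a log2 difference of 1.45 (SE 0.20, limma adjusted p = 0.00610). Psme3, the related activator PA28 gamma found in the nucleus, was not called, at 74.5 ± 2.06 TPM in LPS and 102 ± 13.7 TPM in Vehicle (SD, n = 3 each; log2 difference -0.44, limma adjusted p = 0.0865). The mean of Psme1 and Psme2 on the log2 scale exceeded Psme3 by 2.58, 2.76 and 2.98 in LPS 1, 2 and 3, and by 1.5, 1.49 and 1.20 in Vehicle 1, 2 and 3, a difference of 1.38 between the groups (exact permutation p = 0.1, two-sided).

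The transporter subunits differed in both level and size of change. Tap1 (ENSRNOG00000000457) stood at 214, 546 and 487 TPM in LPS 1, 2 and 3, against 7.12, 4.36 and 6.35 TPM in Vehicle 1, 2 and 3. The lowest LPS library had 171.51 TPM and the highest Vehicle library 8.45 TPM. Its means were 415 ± 177 TPM in LPS and 5.94 ± 1.43 TPM in Vehicle (SD, n = 3 each), a 69.9-fold ratio, with a log2 difference of 5.83 (SE 0.354, limma adjusted p = 0.000389). By log2 difference Tap1 ranked 27 among the 12393 tested genes. Tap2 (ENSRNOG00000000455) stood at 36.4, 74.2 and 74.9 TPM in LPS 1, 2 and 3, against 8.27, 3.60 and 12.4 TPM in Vehicle 1, 2 and 3. Tap2 was the least even of the 8 between libraries: those of Vehicle 1 read 16.09, 4.38 and 4.33 TPM. Its means were 61.8 ± 22.0 TPM in LPS and 8.08 ± 4.39 TPM in Vehicle (SD, n = 3 each), with a log2 difference of 2.94 (SE 0.351, limma adjusted p = 0.00360).

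The transporter works as a pair of unlike subunits, and their transcripts stood nearer to parity in Vehicle than in LPS. In Vehicle both were low, and Tap2 was uneven between libraries. The ratio of Tap1 to Tap2 TPM was 5.86, 7.36 and 6.5 in LPS 1, 2 and 3, against 0.862, 1.21 and 0.513 in Vehicle 1, 2 and 3. LPS 1, in which both transcripts were lower than in the other LPS samples, had a ratio close to theirs. The difference in log2 ratio was 2.89 (exact permutation p = 0.1, two-sided).

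Tapbp (ENSRNOG00000029500) stood at 273, 258 and 444 TPM in LPS 1, 2 and 3, against 90.9, 88.3 and 97.9 TPM in Vehicle 1, 2 and 3. LPS 3 stood above the other LPS samples, and the Vehicle samples lay close together. The means were 325 ± 103 TPM in LPS and 92.4 ± 4.97 TPM in Vehicle (SD, n = 3 each), with a log2 difference of 1.76 (SE 0.179, limma adjusted p = 0.00204).

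The 8 genes were thus not alike in how LPS 1 stood to the other LPS samples. As a percent of the mean of LPS 2 and LPS 3, LPS 1 stood at 40.3% for Psmb8, 46.6% for Psmb9, 41.6% for Psmb10, 41.4% for Tap1 and 48.9% for Tap2. It stood at 70.1% for Psme2, 77.7% for Tapbp and 95.9% for Psme1. The calls of all 8 rested in part on the samples numbered 3: without that pair 0 of the 8, and 0 of all tested genes, passed at the adjusted threshold in limma, while 7 of the 8 and 738 genes were higher at an unadjusted p under 0.05; with the filter on low values recomputed in the remaining samples, 6 of the 8 were called. The call was also lost for all 8 when a sample was taken as the median of its libraries and when no filter on low values was applied, with 8 of 8 at an unadjusted p under 0.05 in both. The sign was positive for all 8 under each of the 17 alternatives run.

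Elsewhere in the proteasome the genes called were few, most of them in the core. Of 13 tested genes of the constitutive core other than the inducible subunits, 3 were higher and 0 lower, against backgrounds of 7.17% and 22.2%, and their median log2 difference was 0.22 against -0.38 over all tested genes; at an unadjusted p under 0.05 limma gave 4 higher and 0 lower. The 3 were Psmb2, at 528 ± 86.7 TPM in LPS and 267 ± 9.21 TPM in Vehicle (SD, n = 3 each; log2 difference 0.97, limma adjusted p = 0.00994), Psma5 with 0.95 (adjusted p = 0.0158) and Psma7 with 0.61 (adjusted p = 0.0302), structural subunits of the barrel that have no inducible substitute. Psma7 was not called after median-ratio scaling (adjusted p = 0.0521) or quantile normalization (adjusted p = 0.0754). Psma6 had a log2 difference of 0.39 and was not called (adjusted p = 0.0775). Of 22 tested genes of the regulatory particle, the cap that recognises ubiquitin, 0 were called in either direction by limma, with a median log2 difference of -0.19. At an unadjusted p under 0.05, 4 of the 22 were lower and 0 higher, against 4679 and 1176 of all 12393 tested genes. The direction of the 22 turned with the scaling: after median-ratio scaling 0 were lower and 4 higher at an unadjusted p under 0.05, with a median of 0.21. Over all tested genes that scaling gave 2152 lower and 2328 higher. With all libraries and an estimated correlation 8 of the 22 were called lower and 0 higher, against 5295 and 1189 of all tested genes. In none of these fits was the share of lower genes above that over all tested genes. With all libraries 6 of the 13 core genes were called higher. In the regulatory particle the ubiquitin receptor Adrm1 had a log2 difference of -0.50 (adjusted p = 0.0700) and the ATPase Psmc3 one of -0.44 (adjusted p = 0.0742), both close to the median of all genes.

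Of 9 tested activators, inhibitors and assembly factors besides PA28, 1 was higher and 0 were lower by limma, against backgrounds of 7.17% and 22.2%. Their median log2 difference was -0.37. At an unadjusted p under 0.05, 1 was higher and 3 were lower, against 1176 and 4679 of all 12393 tested genes. The one called was Psmf1, which encodes the proteasome inhibitor PI31, at 136, 178 and 202 TPM in LPS 1, 2 and 3, against 95.7, 93.8 and 93.1 TPM in Vehicle 1, 2 and 3 (log2 difference 0.85, limma adjusted p = 0.0195). Pomp, the chaperone that helps assemble both kinds of barrel, averaged 589 ± 34.1 TPM in LPS and 509 ± 34.1 TPM in Vehicle and was not called (SD, n = 3 each; log2 difference 0.21, adjusted p = 0.222).

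**Figure D4:**
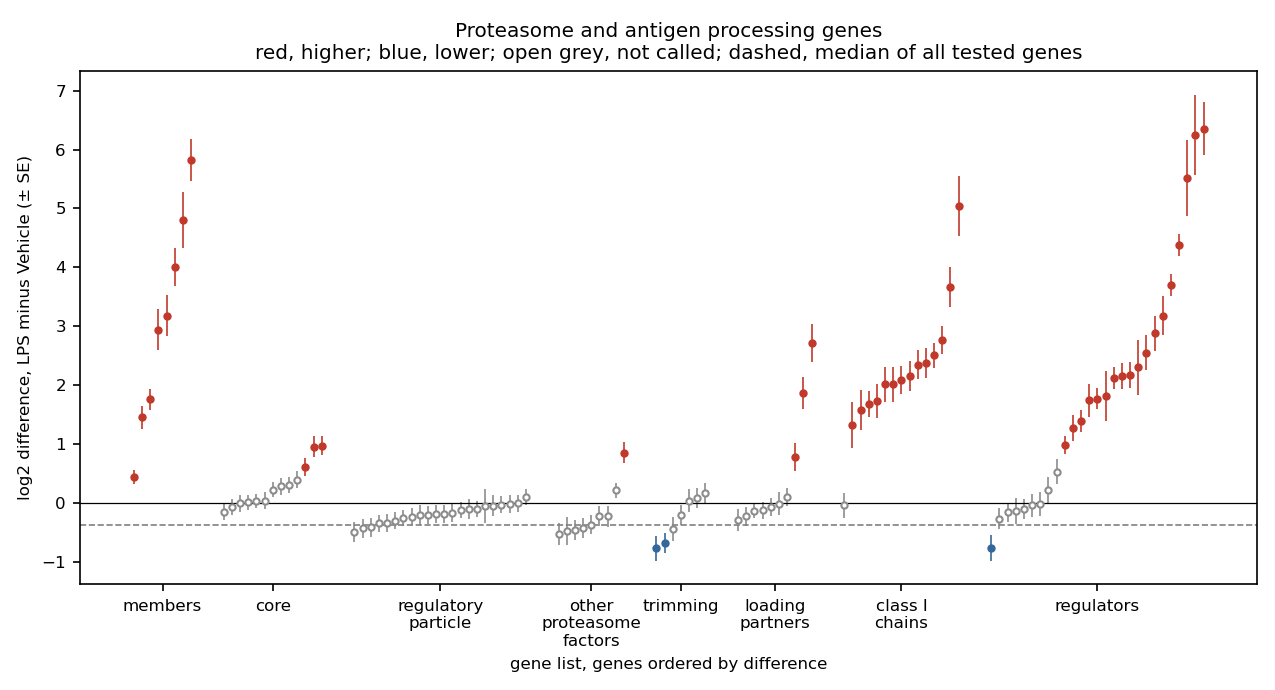
Log2 difference, LPS minus Vehicle, with its SE, for each tested gene of the 8 lists, ordered by size within a list; red points were called higher, blue lower and open grey points not called, and the dashed line is the median of all tested genes, -0.38. All 8 members and 14 of the 15 class I chains are red, with Psme1 the lowest member at 0.44, while no point of the regulatory particle is red or blue.

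Of 7 tested enzymes that trim peptides, 0 were higher and 2 lower by limma, the same counts as at an unadjusted p under 0.05, with a median log2 difference of -0.21. These shares are near the backgrounds of 7.17% and 22.2%. After median-ratio scaling the counts at an unadjusted p under 0.05 were 2 higher and 1 lower, against 2328 and 2152 of all tested genes, with 0 called. Erap1, which trims peptides inside the endoplasmic reticulum to class I length, averaged 46.4 ± 2.40 TPM in LPS and 41.4 ± 5.10 TPM in Vehicle (SD, n = 3 each; log2 difference 0.17, limma adjusted p = 0.457), and had a log2 difference of 0.56 after median-ratio scaling, also not called (adjusted p = 0.0657). The 2 that fell were the cytosolic peptidases Blmh (log2 difference -0.68, adjusted p = 0.0296) and Thop1 (-0.78, adjusted p = 0.0384), and neither was called after median-ratio scaling (adjusted p = 0.141 and 0.130) or quantile normalization (adjusted p = 0.0558 and 0.146). Lnpep was listed at 0 in every library.

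The list of peptide loading partners had 10 tested genes, some, such as Hspa5 and Sec61b, of general protein folding or entry into the endoplasmic reticulum. By limma 3 were higher and 0 lower, against backgrounds of 7.17% and 22.2%. The counts were the same at an unadjusted p under 0.05, and the median log2 difference was -0.05. B2m, the light chain of every class I molecule, stood at 301, 594 and 573 TPM in LPS 1, 2 and 3, against 94.8, 48.2 and 78.5 TPM in Vehicle 1, 2 and 3 (log2 difference 2.72, SE 0.326, limma adjusted p = 0.00365). LPS 1 was again the lowest LPS sample and Vehicle 1 the highest Vehicle sample. Tapbpl, a relative of tapasin that edits peptides away from the transporter, averaged 20.5 ± 8.65 TPM in LPS and 4.6 ± 1.24 TPM in Vehicle (SD, n = 3 each; log2 difference 1.86, adjusted p = 0.00720). The chaperone Hspa5 had a log2 difference of 0.78 (adjusted p = 0.0454) and was not called after median-ratio scaling (adjusted p = 0.0678) or quantile normalization (adjusted p = 0.134). Calr and Pdia3, the chaperone and the oxidoreductase of the loading complex, had log2 differences of 0.10 and -0.13 and were not called (adjusted p = 0.619 and 0.494).

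The class I heavy chains are the molecules that are loaded. By limma 14 of 15 tested rows were higher and 0 lower, against backgrounds of 7.17% and 22.2%. The counts were the same at an unadjusted p under 0.05, and the median log2 difference was 2.09. RT1-CE3, among the 14, averaged 0.689 TPM in Vehicle and passed the filter on low values only through LPS. The row not called was RT1-T24-1, with a log2 difference of -0.05 (adjusted p = 0.875). RT1-S3 stood at 304, 754 and 823 TPM in LPS 1, 2 and 3, against 30.6, 7.69 and 19.8 TPM in Vehicle 1, 2 and 3 (log2 difference 5.03, SE 0.511, limma adjusted p = 0.0020). RT1-CE7 had a log2 difference of 3.67, RT1-N3 of 2.76 and RT1-M3-1 of 2.5. Some RT1 genes are closely alike, and reads that fit more than 1 of them were shared by estimate, so single RT1 values are uncertain.

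Of 27 tested regulators known to act on these genes, 18 were higher and 1 was lower, against backgrounds of 7.17% and 22.2%. Their median log2 difference was 1.77. Nlrc5 and Ciita, both among the 18, averaged 0.124 and 0.112 TPM in Vehicle and passed the filter on low values only through LPS. The lower one was Rfxank, a subunit of the factor that binds MHC promoters (log2 difference -0.77, limma adjusted p = 0.0395), and it was not called after median-ratio scaling (adjusted p = 0.145), after quantile normalization (adjusted p = 0.141), without the replicate block (adjusted p = 0.0549), without the samples numbered 2 (adjusted p = 0.272) or without those numbered 3 (adjusted p = 0.303). Irf1, an interferon regulatory factor that binds ISRE, stood at 658, 2561 and 2030 TPM in LPS 1, 2 and 3, against 110, 18.4 and 24.5 TPM in Vehicle 1, 2 and 3 (log2 difference 5.52, SE 0.649, limma adjusted p = 0.00340). It had the same lowest LPS sample and the same highest Vehicle sample as Psmb8 and Psmb9. Nlrc5, the class I transactivator, stood at 4.56, 11.9 and 13.8 TPM in LPS 1, 2 and 3, against 0.103, 0.05 and 0.220 TPM in Vehicle 1, 2 and 3 (log2 difference 3.18, limma adjusted p = 0.00211), and a change from so low a level is understated on the log2(TPM + 1) scale.

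The subunits of the non-canonical NF-kappaB pathway had another order within LPS. Relb stood at 195, 188 and 178 TPM in LPS 1, 2 and 3, against 6.64, 9.74 and 8.13 TPM in Vehicle 1, 2 and 3 (log2 difference 4.38, limma adjusted p = 0.000122). Nfkb2 stood at 161, 139 and 133 TPM in LPS 1, 2 and 3, against 8.66, 11.2 and 10.7 TPM in Vehicle 1, 2 and 3 (log2 difference 3.70, adjusted p = 0.000232). For both, LPS 1 was the highest LPS sample. Nfkb1 and Rela, other NF-kappaB subunits, were also called higher (limma adjusted p = 0.00330 and 0.00856), with LPS 1 the lowest LPS sample. Nfkb1 stood at 63.6, 182 and 149 TPM in LPS 1, 2 and 3, and Rela at 129, 147 and 137 TPM. Irf7, a factor that is itself induced by interferon, had a log2 difference of 6.36 and Irf9, a subunit of an interferon-activated transcription factor complex, one of 2.11 (adjusted p = 0.000552 and 0.00118).

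**Figure D5:**
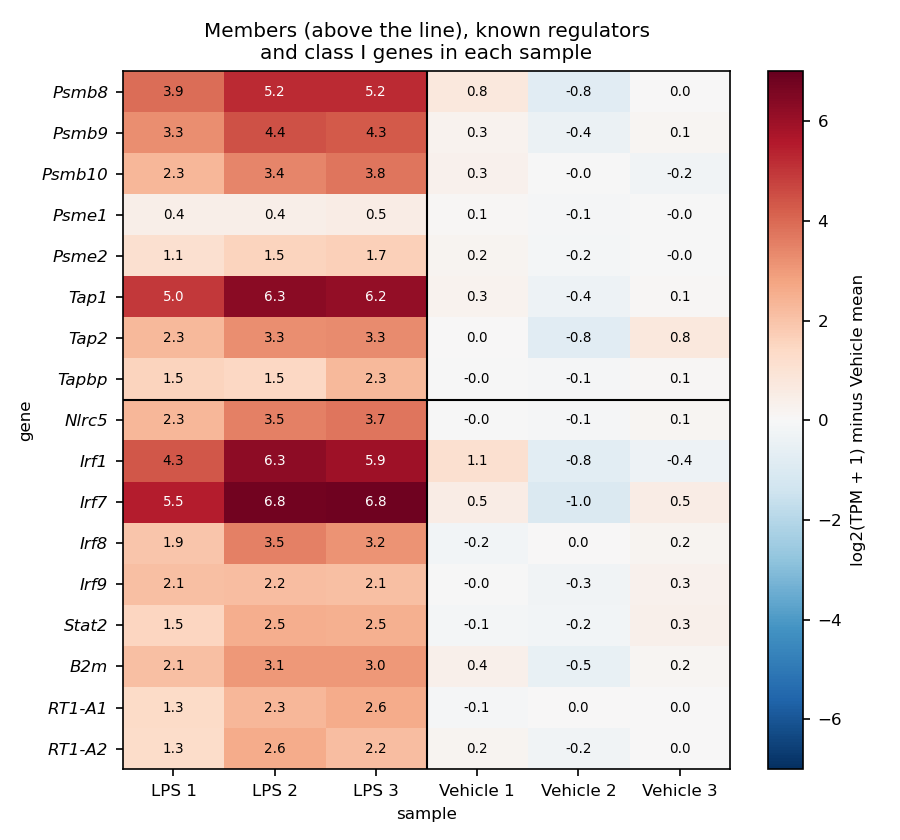
Log2(TPM + 1) of each sample minus the Vehicle mean of the gene, with the LPS samples in the left columns, the Vehicle samples in the right columns and the 8 members above the line. LPS 1 is paler than LPS 2 and LPS 3 for Psmb8, Psmb9, Psmb10, Tap1, Tap2, Nlrc5, Irf1 and B2m, while Psme1 and Irf9 are even across the LPS samples.

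Markers of other cell types were present, and some moved with the groups. The counts of markers called stand against backgrounds of 7.17% higher and 22.2% lower over all tested genes. Summed over 16 monocyte and macrophage markers the level was 454, 245 and 198 TPM in LPS 1, 2 and 3, against 265, 118 and 189 TPM in Vehicle 1, 2 and 3, and of 11 tested 4 were higher (Adgre1, C1qa, Fcer1g and Tyrobp) and 1 lower (Csf1r). LPS 1 was the highest LPS sample in this sum. It was the lowest in Psmb8, Psmb9, Psmb10, Psme2, Tap1 and Tap2, while Psme1 and Tapbp were lowest in LPS 2. Lyz2 led this list at 152 ± 88.1 TPM in LPS and 114 ± 48.0 TPM in Vehicle (SD, n = 3 each; not called, limma adjusted p = 0.405), while Fcer1g was called higher (log2 difference 1.53, adjusted p = 0.00491), and the leukocyte marker Ptprc stood at 1.14 ± 0.319 TPM in LPS and 0.831 ± 0.421 TPM in Vehicle. Cx3cr1, also of this list, was lower in LPS, at 0.06 ± 0.0416 TPM against 1.88 ± 0.988 TPM in Vehicle (SD, n = 3 each). It averaged below the filter on low values and was not tested. Dendritic cell and class II markers, 10 in number, summed to 315 to 551 TPM in LPS and 198 to 274 TPM in Vehicle, with 3 of 6 tested higher (Cd74, RT1-Ba and Ciita). Most of this sum was the class II gene Cd74, at 286 ± 92.3 TPM in LPS and 172 ± 29.6 TPM in Vehicle (SD, n = 3 each). The dendritic cell markers Flt3, Xcr1, Itgax and Clec9a were not tested. They averaged 0.0444, 0.0211, 0.373 and 0.112 TPM in LPS and 0.158, 0.139, 0.228 and 0.104 TPM in Vehicle. Endothelial markers summed to 43.7 to 101 TPM in LPS and 26.3 to 114 TPM in Vehicle, with 2 of 10 tested higher (Flt1 and Esam) and 1 lower (Egfl7). T and NK cell markers summed to 6.17 to 10.6 TPM in LPS and 3.41 to 7.95 TPM in Vehicle, with 1 of 2 tested higher (Gzmb), and B cell markers to 2.80 to 5.24 TPM in LPS and 4.40 to 6.20 TPM in Vehicle, where Cd79a alone was tested and not called (adjusted p = 0.826). Neutrophil markers summed to 5.98, 2.27 and 87.3 TPM in LPS 1, 2 and 3, against 0.127, 0.480 and 0.803 TPM in Vehicle 1, 2 and 3, with S100a8 and S100a9, the 2 tested, both higher. In Vehicle S100a8, S100a9, Gzmb, Ciita and Flt1 averaged 0, 0.0444, 0.0489, 0.112 and 0.543 TPM. They passed the filter on low values only through LPS, so the filter fixed their direction. Psmb8, Psmb9 and Tap1 were highest in LPS 2, which had the smallest neutrophil sum of the LPS samples, at 774, 601 and 546 TPM. Psmb10, Psme1, Psme2, Tap2 and Tapbp were highest in LPS 3, which had the largest, at 302, 861, 388, 74.9 and 444 TPM. The part of other cells in the rises was not tested.

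The genes whose profile over the 6 samples was nearest to 4 of the members were found by the root mean square log2 difference among 9197 genes with at least 5 TPM on average. Nearest to Psmb8 were RT1-S3 at 0.214, AABR07018078.1 at 0.243, Oasl2 at 0.303 and Dhx58 at 0.317. Nearest to Tap1 were Irgm at 0.204, Arid5a at 0.213, Igtp at 0.235 and MGC105567 at 0.252, and Irgm and Igtp encode interferon-inducible GTPases. Nearest to Psme1 were Smap2 at 0.0648, the proteasome subunit Psma6 at 0.0699, RGD1565131 at 0.0705 and AABR07042903.1 at 0.0732, where small distances come with small differences. Nearest to Tapbp were Vault at 0.210, Whamm at 0.216, Nceh1 at 0.221 and Fbxw17 at 0.241. Vault was listed at 0 in all 9 Vehicle libraries and in 6 of the 9 LPS libraries, with 38.03, 30.87 and 45.84 TPM in 1 library each of LPS 1, 2 and 3, so its nearness comes from averaging over libraries that differ. Among the members themselves the nearest pair was Psme2 and Tapbp at 0.311, followed by Psmb10 and Tap2 at 0.553 and Psmb8 and Psmb9 at 0.617, and the farthest was Psme1 and Tap1 at 3.83.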

How the data were processed

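The table deposited by the authors holds TPM, one column per library, for Ensembl rat genes with a symbol. Per the labels' protocols, RNA was extracted from the microdissected ducts and copied and amplified with a low-input template-switching kit before tagmentation. The submitters' processing notes name STAR 2.7.9a, RSEM 1.3.3 and the build Rnor_6.0. Which annotation release was used, and whether rows were filtered, is not given in the sources used here. Columns named N were read as the normal saline Vehicle and columns named L as LPS. There were 0 columns of other samples and 0 pairs of identical libraries.

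From the deposited TPM, log2(TPM + 1) was averaged over the 3 libraries of a numbered sample, the unit of replication. A gene was tested if it averaged 1 TPM or more over the 18 libraries (12393 were, 20490 were not). A gene averaging below 1 TPM in a group could pass only through the other group, which fixes the direction of its difference. The contrast of LPS with Vehicle was fitted with limma 3.58.1 under R 4.3.3 (empirical Bayes, variance trend, two-sided, Benjamini-Hochberg over all tested genes). The sample number entered as a block, since the samples are described as paired; the residual degrees of freedom were 2 and those of the prior 4.97. Deviations of same-numbered samples from their group means correlated at 0.0622, -0.0175 and 0.0686 across genes, and the pairing is taken from the design text alone. Nothing says that the samples are separate animals, so the p-values reflect only how these samples vary, which may be technical. Fold changes on the log2(TPM + 1) scale understate changes of low genes. Ratios were compared by exact permutation. The fit was checked on simulated data.

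The members, gene lists and motifs were chosen with earlier results of these data known. Named were all members, from each pathway list up to 4 genes of smallest p, a fixed set of counterparts and regulators, and the 4 genes of nearest profile to each of 4 members. Rfxank, Ciita, Nfkb1, Rela, RT1-T24-1, RT1-CE3, marker genes named singly and the ratio of Psme1 to Psme2 were chosen after their values were seen. A gene that the rule names is not reported here. Promoter windows came from RefSeq (GRCr8), a build other than that of the table, and were matched by symbol. Alternatives covered the block, the use of libraries, pseudocount, filter, scaling, variance trend and leaving out each sample number; leaving out a sample number with the filter recomputed was added after the data were seen.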

Additional observations from a re-analysis of the deposited data

How the results depend on the processing

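The number of members called higher was 8 without the replicate block and 7 or 8 under the other alternatives, except for 0 with the median over libraries, 0 without a filter and 0 to 8 over the fits that left out a sample number. Over all genes the fit without the replicate block, which ignores the paired design, called 912 higher and 3624 lower. All libraries with an estimated correlation called 5295 lower, the median over libraries 0 higher and 0 lower by limma (1019 and 4167 at an unadjusted p under 0.05), no filter 18 and 2, median-ratio scaling 460 lower and quantile normalization 579 lower. Leaving out a sample number gave 0 to 1004 higher and 0 to 3595 lower. With the filter recomputed, an alternative added after the data were seen, it gave 280 to 1130 higher and 84 to 4231 lower, with 1256 lower without the samples numbered 2. The cause of these moves was not tested. The log2 difference of the members was positive throughout, from 0.34 to 0.85 for Psme1 and from 5.16 to 6.39 for Tap1; besides the losses given in the results, Psme1 and Psme2 were not called without the samples numbered 3 when the filter was recomputed. Some genes that were not called turned sign. After median-ratio scaling Psmb5 stood at 0.39, Psmb7 at 0.33 and Pdia3 at 0.28. Under the same scaling Psmc2 stood at 0.055, Lap3 at 0.19 and Ganab at 0.11, from -0.35, -0.21 and -0.29 in the main fit. There Psmc2 was lower at an unadjusted limma p of 0.0454. After quantile normalization Psmb6 stood at -0.053. Over the fits without a sample number Psmb5 ranged from -0.13 to 0.13, Calr from -0.0278 to 0.24 and Pdia3 from -0.25 to 0.025. TPM keeps no read number, so depth limits cannot be stated, and with 3 samples a group no ratio could pass 0.05 by permutation.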

Other observations

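The 2 PA28 transcripts drew nearer to each other in LPS, a comparison chosen after the values were seen and given without a test. The ratio of Psme1 to Psme2 TPM was 3.04, 2.23 and 2.22 in LPS 1, 2 and 3, against 4.63, 5.24 and 5.17 in Vehicle 1, 2 and 3. The ring of PA28 is built from both subunits. LPS 1 lay nearest to the Vehicle samples, and the groups did not overlap.

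In Psmb2, Psma5 and Psma7, the core subunits called higher, LPS 1 was the lowest LPS sample, as it was in Psmb8, Psmb9 and Psmb10. Psmb2 stood at 430, 596 and 557 TPM in LPS 1, 2 and 3, against 278, 262 and 262 TPM in Vehicle 1, 2 and 3. Psma5 stood at 267, 403 and 404 TPM in LPS 1, 2 and 3, against 189, 180 and 177 TPM in Vehicle 1, 2 and 3. In both, Vehicle 1 was highest within Vehicle.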
